A study of Homo sapiens with 3 samples.

Results

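Keratin-associated protein (KRTAP) genes were examined in PANC-1, a standard cell line from a human pancreatic ductal tumour. Members were all genes whose symbol starts with KRTAP followed by a number, after the transcript accession of each probe had been matched to RefSeq. The arrays held 84 such genes among 19699 matched genes, read by 102 of the 25705 matched probes. There were 83 protein genes and 1 antisense RNA, KRTAP5-AS1, which was matched by its own accession. The genes were chosen as a group with results of these arrays already known, among them the signal of KRTAP4-2, so the values below describe the arrays and are not tests.

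Total RNA was hybridised to Agilent 1-colour arrays. There was 1 array each for control cells, cells given 20 µM cantharidin (CAN) and cells given 20 µM okadaic acid (OA). No dose or time is listed for the control cells. Both treatments lasted 24 h, and both agents inhibit the phosphatase PP2A. The doses are those of the labels, and 20 µM is high for okadaic acid, whose dose was found in no other source used here. All 3 groups were the same cell line, and no second array of any group was used, so no difference has a replicate check and no p-value was computed. In RNA from whole cultures, fewer cells making a transcript and less transcript per cell cannot be told apart.

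KRTAPs are small proteins of the hair shaft. Through their many cysteine or glycine and tyrosine residues they form the matrix that embeds and cross-links the hair keratin filaments. They are classed as high sulfur, ultrahigh sulfur or high glycine and tyrosine proteins, and their genes lie in tandem clusters of closely similar copies. The class given here for each gene was assigned by its family number, from general knowledge of the families, and was not computed from protein sequences. Their normal site of expression is the hair follicle during terminal differentiation of the shaft, not the pancreatic duct.

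The simple epithelial keratins KRT7, KRT8, KRT18 and KRT19 were read as markers of the cell line, and 4 of 4 were well above background on each array. Of all genes, 79.7% passed that mark in control cells, 80.7% under CAN and 75.9% under OA. Detection of these keratins therefore does not establish ductal identity. Of 11 markers of leukocytes, endothelium, fibroblasts and epidermis, 9 were well above background by any probe in control cells, 7 under CAN and 6 under OA. Among the probes used for these markers, those of KRT14, LUM and PECAM1 reached that mark on 0 of the 3 arrays. COL1A1, a fibroblast collagen, had an intensity of 528 in control cells and was not well above background under CAN (16.6) or OA (35.7). Other markers were higher than control. KRT10, a keratin of differentiating epidermis, had intensities of 30367, 61271 and 74498, with log2 differences of 1.15 under CAN and 1.04 under OA. CD14, a monocyte receptor, had 2535, 1838 and 11044, with -0.33 and 1.87, and KRT5, a basal epidermal keratin, was near background at 39.7, 56.8 and 49.8, with 0.65 under CAN. At 1.5-fold, 2 of 8 markers compared were higher and 3 lower under CAN, and 2 of 8 were higher and 2 lower under OA. Over all genes 27.5% were higher and 34.1% lower under CAN, and 28.1% and 28.8% under OA. The marker calls were thus close to the shares of all genes. The part of these markers in the KRTAP values was not tested.

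The sequences before the transcription start are shown first for the KRTAP genes that the results turn on. They are the 120 bases upstream of the start in RefSeq GRCh38.p14, read 5′ to 3′ in the direction of transcription. KRTAP4-2 had the largest differences from control, KRTAP4-1 is its neighbour in the same family, and KRTAP4-6, KRTAP2-3, KRTAP12-2 and KRTAP13-4 were also higher under both agents. KRTAP2-4 was lower under both on the probe used, and KRTAP3-3 differed in direction between the agents. Capitals mark TATAAA as well as any match to TGANTCA or to TGACNTCA, where N is any base.
KRTAP4-2, chr17:41178222-41178341, minus strand: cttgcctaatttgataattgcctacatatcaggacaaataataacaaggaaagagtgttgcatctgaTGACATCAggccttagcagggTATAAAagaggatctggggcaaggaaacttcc
KRTAP4-1, chr17:41184912-41185031, minus strand: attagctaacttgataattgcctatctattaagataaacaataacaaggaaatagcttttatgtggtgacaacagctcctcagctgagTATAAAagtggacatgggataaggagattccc
KRTAP4-6, chr17:41140545-41140664, minus strand: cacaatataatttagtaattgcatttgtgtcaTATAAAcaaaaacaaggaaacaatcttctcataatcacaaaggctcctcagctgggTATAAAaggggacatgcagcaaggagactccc
KRTAP2-3, chr17:41060115-41060234, minus strand: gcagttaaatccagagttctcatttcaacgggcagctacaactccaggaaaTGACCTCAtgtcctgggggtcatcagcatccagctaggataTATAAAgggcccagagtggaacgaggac
KRTAP2-4, chr17:41065880-41065999, minus strand: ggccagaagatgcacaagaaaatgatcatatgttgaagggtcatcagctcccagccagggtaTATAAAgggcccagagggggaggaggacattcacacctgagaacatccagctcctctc
KRTAP3-3, chr17:40994165-40994284, minus strand: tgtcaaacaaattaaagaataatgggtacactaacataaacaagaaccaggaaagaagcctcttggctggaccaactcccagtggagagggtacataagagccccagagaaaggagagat
KRTAP12-2, chr21:44666928-44667047, minus strand: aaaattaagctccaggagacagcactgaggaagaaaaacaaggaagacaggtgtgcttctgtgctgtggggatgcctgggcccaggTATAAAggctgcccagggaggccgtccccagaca
KRTAP13-4, chr21:30430100-30430219, plus strand: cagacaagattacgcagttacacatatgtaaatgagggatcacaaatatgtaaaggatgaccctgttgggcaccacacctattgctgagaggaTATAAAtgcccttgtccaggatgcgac

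Promoter entries were found for 70 of the 84 members. In the 250 bases before the start, TATAAA, the core of a TATA box, was present on either strand in 53 of the 70 (75.7%), against 10.7% of 35093 promoters of all genes. Each of the 6 genes higher under both agents held it, as most KRTAP promoters did. Genes lower under both agents held it too, among them KRTAP2-4, KRTAP4-11 and KRTAP6-2, so its presence does not set the higher genes apart. TGACNTCA, which resembles the cyclic AMP response element, was found in 6 of 70 KRTAP promoters (8.57%) and in 6.87% of all promoters. Its KRTAP carriers were KRTAP4-2, KRTAP4-4, KRTAP4-6, KRTAP2-3, KRTAP6-1 and KRTAP6-2. Signals of these genes were higher than control under both agents for KRTAP4-2, KRTAP4-6 and KRTAP2-3, and lower for KRTAP6-2. KRTAP6-1 was called under neither agent, at 0.34 under CAN and 0.06 under OA. The KRTAP4-6 match lies on the opposite strand, 239 to 232 bases before the start and outside the bases printed above. In KRTAP4-2 this match spans 53 to 46 bases before the start and TATAAA spans 32 to 27. KRTAP4-4 has the same match at the same distance, and 84.4% of the 250 bases were identical between the pair. KRTAP4-4 was read by 1 probe, which was detected on none of the arrays, and this does not show that its transcript was absent. KRTAP4-1, at 71.2% identity, lacks the match. Over all 2415 pairs of KRTAP promoters identity ran from 42.4% to 93.2% with a median of 59.6%, and the median of KRTAP4 pairs was 66.0%.

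The other motifs were TGANTCA (AP-1), GCGNGGGCG (EGR type) and CTTTGAA (LEF1 type), searched on both strands. They were present in 6, 0 and 11 of the 70 KRTAP promoters, against 6.57%, 8.41% and 3.80% of all promoters. ACAAGGAA was picked from the KRTAP sequences themselves, so its share is only a description. It stood in 21 of 70 KRTAP promoters, 7 of the 11 of the KRTAP4 family among them, and in 1.29% of all promoters. These are letter matches and not measured binding sites.

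A probe counted as detected when the scanner software marked most of its spots as well above background. By any probe, 68 of the 84 members (81.0%) were detected in control cells, 67 (79.8%) under CAN and 61 (72.6%) under OA. Over all genes the shares were 79.7%, 80.7% and 75.9%. Detection on all 3 arrays applied to 59 members and on 1 or 2 arrays to 12. The 13 members on no array were KRTAP1-1, KRTAP4-4, KRTAP8-1, KRTAP9-3, KRTAP9-4, KRTAP10-11, KRTAP13-3, KRTAP16-1, KRTAP17-1, KRTAP19-4, KRTAP19-6, KRTAP26-1 and KRTAP27-1. The arrays differed in how dim a probe they could measure, since the lowest intensity well above background was 35.0 on the control array, 21.9 under CAN and 58.0 under OA.

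Differences are given as log2 of the signal ratio with the 75th percentile of an array as its reference. A gene was read by its brightest probe, compared where that probe was detected on 1 or both of the arrays in question, and called at 1.5-fold. Under CAN, 7 of 70 KRTAP genes compared (10.0%) were called higher, where 27.5% of all genes were, and 17 (24.3%) were called lower, where 34.1% of all genes were. The median KRTAP difference was -0.27, beside -0.16 over all genes. Within 1.5-fold of control lay 46 of the 70 KRTAP genes (65.7%) and 38.4% of all genes.

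Under OA, 14 of 69 KRTAP genes (20.3%) were called higher and 15 (21.7%) lower, against 28.1% and 28.8% of all genes. The median was -0.0015, beside 0.01 over all genes. Without scaling between arrays the counts were 17 higher and 9 lower, so the balance of calls depended on the scaling. Within 1.5-fold of control lay 40 of the 69 (58.0%) and 43.1% of all genes. Both comparisons used the same control array, so they are given side by side and their agreement is not read as a result. Counted over both, 6 members were higher under CAN and OA, 9 were lower under both, 1 was higher under CAN only, 6 were higher under OA only, 6 were lower under CAN only, 6 were lower under OA only and 2 were lower under CAN and higher under OA. The other 48 were called under neither agent, among them the 13 members detected on no array, which could not be called. Counts of this kind over all genes are not given here, so none of them is read as a result about KRTAP genes. In each setting run at 1.5-fold that gave a value, 5 of the 7 higher and 4 of the 17 lower calls held under CAN, and 7 of the 14 higher and 4 of the 15 lower calls under OA.

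**Figure D1:**
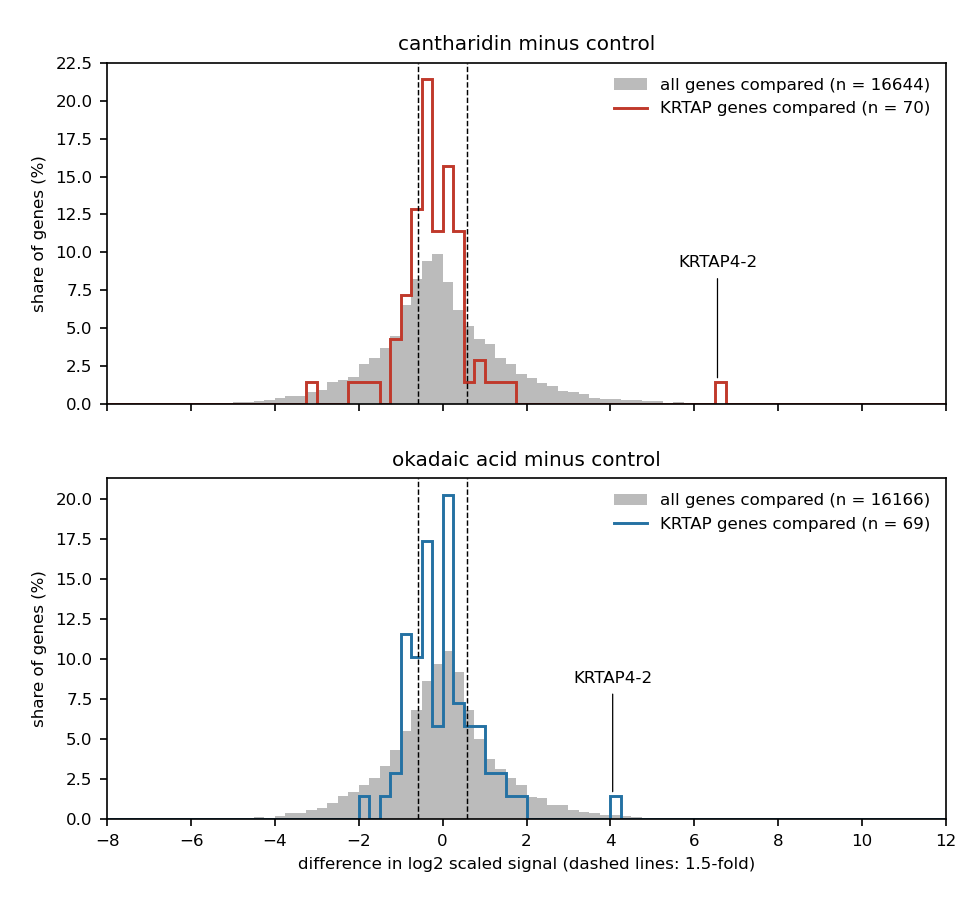
Distribution of the log2 difference from control (x axis, bins of 0.25) as a share of genes (y axis, percent), for all genes compared in grey and KRTAP genes as a coloured line, under CAN above and OA below. Dashed lines mark 1.5-fold, and KRTAP4-2 lies at 6.56 under CAN and 4.06 under OA, away from the other KRTAP genes, which lay below 2.

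KRTAP4-2 encodes an ultrahigh sulfur protein of the hair shaft. Its intensity was 94.5 on the control array, 8077 under CAN and 1876 under OA. The control array was lowest and the CAN array highest. The scaled signal was 94.1-fold higher under CAN, a log2 difference of 6.56 with a spot error of 0.24, and 16.6-fold higher under OA, a log2 difference of 4.06 with a spot error of 0.24. The spot error is the scanner software's estimate for the single spots compared, and it covers neither hybridisation nor culture. Its control signal was 2.70 times the lowest intensity well above background on its array. KRTAP4-2 had the 20th highest difference of 16644 genes under CAN and the 163rd of 16166 under OA, counting genes that were not well above background on 1 array.

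The other KRTAP genes higher under both agents differed by far less. KRTAP12-2, a high sulfur family member, had intensities of 109, 303 and 336 on the control, CAN and OA arrays, with log2 differences of 1.61 and 1.37. For KRTAP2-3, also of a high sulfur family, they were 206, 472 and 660, with differences of 1.33 and 1.42. KRTAP13-4, another high sulfur gene, showed 145, 267 and 368, with differences of 1.02 and 1.09. In these 3 genes the control array was the lowest and the treated arrays lay close together. The ultrahigh sulfur genes KRTAP4-6 and KRTAP4-9 were dimmer and nearer to background. KRTAP4-6 gave 46.6, 77.7 and 111, with differences of 0.88 and 1.001 and spot errors of 0.32 and 0.34. KRTAP4-9 gave 53.6, 74.9 and 115, with differences of 0.62 and 0.84 and spot errors of 0.30 and 0.32. Their control signals were 1.33 and 1.53 times the lowest intensity well above background. With normexp background correction the calls of both genes were lost, at 0.38 and 0.42 for KRTAP4-6 and at 0.16 and 0.24 for KRTAP4-9 under CAN and OA. That setting adds an offset of 50 to each signal, which by itself shrinks the log2 differences of probes this dim.

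**Figure D2:**
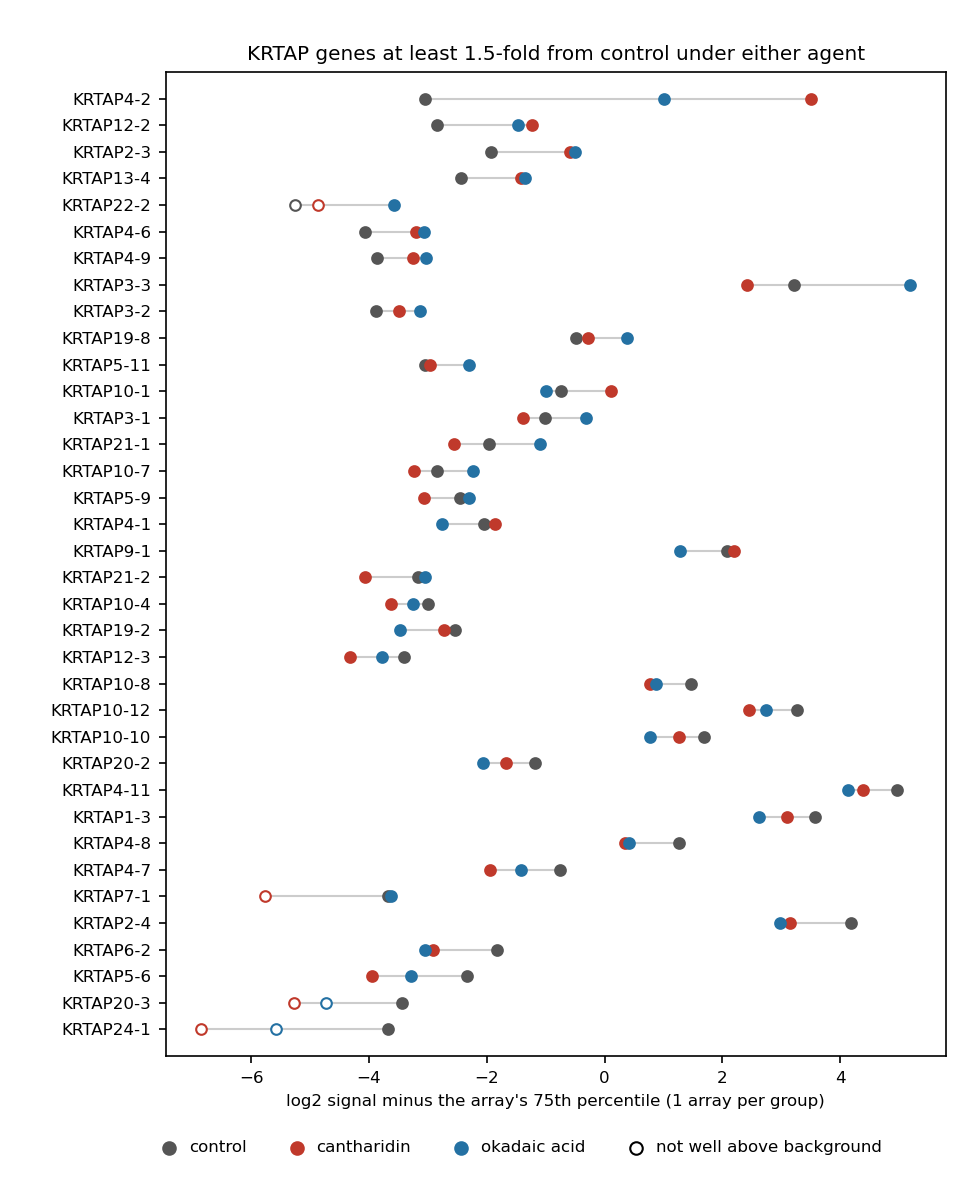
Scaled log2 signal (x axis, log2 intensity minus the 75th percentile of the array) of the 36 KRTAP genes at least 1.5-fold from control under either agent, with 1 point per array and open points where the probe was not well above background. Genes are ordered by the sum of the differences, with KRTAP4-2 at the top and KRTAP24-1 at the bottom, and signals of different genes come from different probes and are not to be set against each other.

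A gap between the agents was largest for KRTAP3-3, a high sulfur gene. Its intensity was 7238 in control cells, 3823 under CAN and 34116 under OA. CAN lay below control, with a log2 difference of -0.78, and OA above it, with 1.98, and each spot error was 0.20. On the probes used, the other KRTAP3 genes also lay above control under OA, but neither call held in each setting. KRTAP3-1 had intensities of 390, 271 and 749 and an OA difference of 0.69. Its other probe, printed in 10 spots and well above background on all 3 arrays, had an OA difference of 0.19, and the median over its probes was 0.44. KRTAP3-2 had 53.1, 63.5 and 106 and an OA difference of 0.74, which was 0.24 with normexp background correction. Under CAN these genes were at -0.38 and 0.39. KRTAP21-1, of the high glycine and tyrosine class, was the other gene with opposite calls. Its intensities were 201, 120 and 437, and its differences were -0.60 under CAN and 0.87 under OA.

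Higher signal under OA with no call under CAN was also seen for KRTAP19-8, KRTAP5-11, KRTAP10-7 and KRTAP22-2. KRTAP19-8, a high glycine and tyrosine gene, went from an intensity of 558 in control cells to 588 under CAN and 1214 under OA, an OA difference of 0.87. KRTAP5-11 and KRTAP10-7 had OA differences of 0.76 and 0.62. KRTAP22-2 was well above background only under OA, at an intensity of 78.6, where it was at least 1.88-fold higher than control. The gene called higher under CAN only was KRTAP10-1, with 468, 771 and 469 and differences of 0.86 and -0.25.

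Among genes lower under both agents, KRTAP5-6, an ultrahigh sulfur gene, had intensities of 155, 46.2 and 96.3 and differences of -1.61 and -0.95. KRTAP6-2, of the high glycine and tyrosine class, had 222, 94.7 and 113 and differences of -1.09 and -1.23. In both genes the control array was highest and both treated arrays remained well above background. KRTAP4-11, of the same family as KRTAP4-2, gave 24481, 14821 and 16325, with differences of -0.59 and -0.84. KRTAP10-8, a high sulfur gene, gave 2168, 1209 and 1707, with differences of -0.70 and -0.60. KRTAP24-1 and KRTAP20-3 were well above background in control cells only, at 61.1 and 72.0. KRTAP24-1 was at least 2.54-fold lower under CAN and at least 1.26-fold lower under OA, and KRTAP20-3 at least 2.99-fold and at least 1.48-fold, so the OA bounds of these genes do not reach 1.5-fold. The remaining genes lower under both were KRTAP2-4, KRTAP4-7 and KRTAP4-8, whose probes disagreed.

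Genes called lower under CAN only were KRTAP5-9, KRTAP7-1, KRTAP10-4, KRTAP10-12, KRTAP12-3 and KRTAP21-2. KRTAP7-1, of the high glycine and tyrosine class, was detected in control cells (61.0) and under OA (76.1) and not under CAN (13.1), where it was at least 2.53-fold lower. The other 5 had CAN differences between -0.92 for KRTAP12-3 and -0.61 for KRTAP5-9. KRTAP10-12 was at -0.81 on the probe used and at -0.036 on another that was well above background on all 3 arrays, and the median over its probes, -0.43, was within 1.5-fold. Genes called lower under OA only were KRTAP1-3, KRTAP4-1, KRTAP9-1, KRTAP10-10, KRTAP19-2 and KRTAP20-2, with OA differences between -0.95 for KRTAP1-3 and -0.72 for KRTAP4-1. KRTAP1-3 had intensities of 9359, 6097 and 5777 on the control, CAN and OA arrays, and another of its probes was also lower under OA, at -0.67. For KRTAP9-1 the probe used was at -0.80 under OA and 2 others at -0.34 and 0.04, and for KRTAP10-10 they were at -0.92 and -0.23, each well above background on all 3 arrays. Over the median of probes these calls were lost, at -0.34 for KRTAP9-1 and -0.57 for KRTAP10-10.

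Another 35 members were detected on at least 1 array and called under neither agent. Their intensities ran from 28.5 for KRTAP9-8 to 2408 for KRTAP5-4 on the control array, from 29.4 to 1618 under CAN and from 46.0 to 2137 under OA. Where compared, CAN differences lay between -0.57 for KRTAP4-3 and 0.47 for KRTAP19-1, and OA differences between -0.58 for KRTAP19-1 and 0.58 for KRTAP2-2. These 3 genes were thus just outside the threshold. Just inside it were KRTAP4-9 (0.62) and KRTAP4-11 (-0.59) under CAN and KRTAP10-7 (0.62) and KRTAP10-8 (-0.60) under OA. The antisense RNA KRTAP5-AS1 had intensities of 222, 168 and 290, with differences of -0.27 and 0.13.

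The treated arrays were also set against each other. OA was called higher than CAN for 15 of 69 KRTAP genes (21.7%) and lower for 7 (10.1%), where 29.5% and 22.3% of all genes were called. The median was 0.10, beside 0.13 over all genes. KRTAP3-3 was 6.79-fold higher under OA than under CAN and KRTAP21-1 was 2.76-fold higher. KRTAP4-2 was 5.66-fold lower under OA than under CAN and KRTAP10-1 was 2.16-fold lower. The balance of higher and lower calls in this comparison depended on the scaling, with 9 higher and 12 lower under median scaling and 30 higher and 3 lower without scaling. Shares of all genes moved the same way, with 24.2% higher and 27.2% lower under median scaling and 47.1% and 13.9% without scaling.

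By protein class, 0 of the 13 high glycine and tyrosine genes compared under CAN were called higher and 5 (38.5%) lower, with a median of -0.49, where 27.5% of all genes were called higher and 34.1% lower. Under OA, 3 of 14 were higher (21.4%) and 4 lower (28.6%), with a median of 0.06, where 28.1% and 28.8% of all genes were. Of the high sulfur genes, 4 of 32 were higher (12.5%) and 7 lower (21.9%) under CAN, and 7 of 31 were higher (22.6%) and 5 lower (16.1%) under OA. Of the ultrahigh sulfur genes, which include KRTAP4-2, 3 of 24 were higher (12.5%) and 5 lower (20.8%) under CAN, and 4 of 23 were higher (17.4%) and 6 lower (26.1%) under OA. The classes were not tested against each other. By position, the 12 members on chromosome 11 had 0 higher and 2 lower calls under CAN and 1 of each under OA. On chromosome 17, 4 of 22 were higher (18.2%) and 5 lower (22.7%) under CAN, and 7 of 21 were higher and 7 lower (33.3% each) under OA. On chromosome 21 the counts were 3 higher (8.33%) and 10 lower (27.8%) of 36 under CAN, and 6 higher (16.7%) and 7 lower (19.4%) of 36 under OA.

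Neighbouring copies in the chromosome 17 cluster differed widely. KRTAP4-3 and KRTAP4-1 lie on either side of KRTAP4-2. On the probes used, their CAN differences were -0.57 and 0.19 and their OA differences -0.56 and -0.72. Another KRTAP4-1 probe was called higher under CAN, with median spot intensities of 16.3, 58.8 and 36.3 on the control, CAN and OA arrays. Across the KRTAP4 family, 3 of 10 genes compared were higher and 3 lower under CAN, and 3 were higher and 4 lower under OA. Over all genes 27.5% were higher and 34.1% lower under CAN, and 28.1% and 28.8% under OA. The family counts alone therefore do not set these copies apart from other genes. KRTAP2-3 and KRTAP2-4 are also neighbours, and they were called in opposite directions under both agents on the probes used. Beyond the end of the cluster, the hair keratin KRT33B was not detected in control cells (44.5) or under OA (35.5), and at 781 under CAN it was at least 19.3-fold higher than control. KRT33B was picked after its values had been seen. Among the 22 nearest other genes beside KRTAP clusters, 6 of 18 compared were higher (33.3%) and 5 lower (27.8%) under CAN, and 3 of 16 were higher (18.8%) and 5 lower (31.2%) under OA. The largest differences measured on both arrays were those of IFITM10, an interferon-induced transmembrane protein family gene (4.14 and 2.45), SUMO3, which encodes a ubiquitin-like modifier (-1.30 and -2.32), and CTSD, the lysosomal protease cathepsin D (-1.17 and -1.54).

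**Figure D3:**
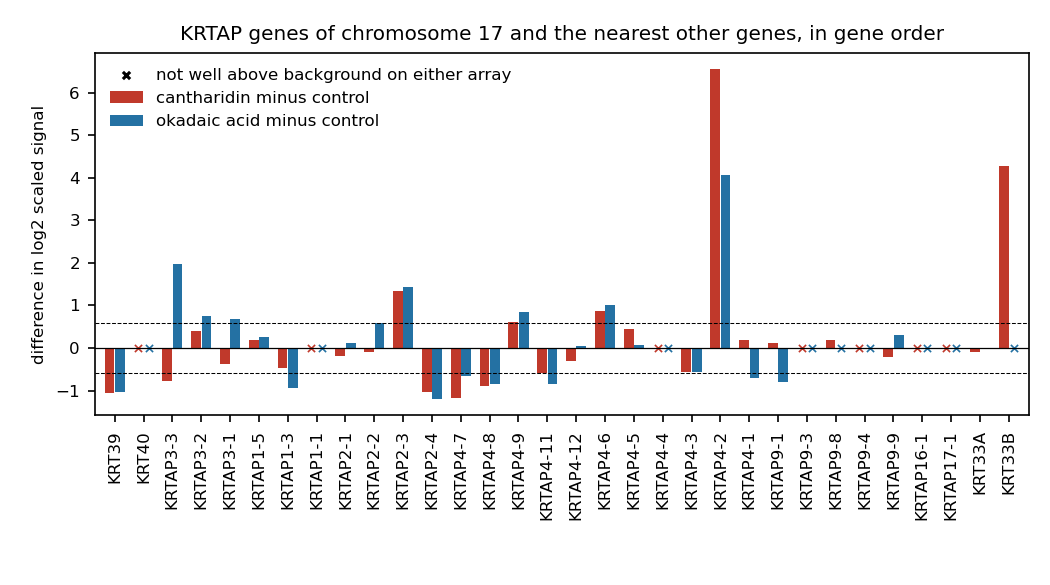
Log2 difference from control (y axis) under CAN and OA for the KRTAP genes of chromosome 17 and the nearest other genes on each side, in gene order and not to distance along the chromosome. Crosses mark genes not well above background on either array compared and dashed lines mark 1.5-fold. The bars of KRTAP4-2 reach 6.56 and 4.06, while those of its neighbours KRTAP4-3 and KRTAP4-1 stay between -0.72 and 0.19. Bars show the probe used for each gene, and another KRTAP4-1 probe was called higher under CAN.

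Several KRTAP genes were read by more than 1 probe, and their calls did not always match. There were 15 such genes with 33 probes. Under CAN, the probes of KRTAP2-4, KRTAP4-7 and KRTAP4-8 were called in opposite directions, and under OA those of 0 genes were. The probe used was called under CAN in 6 of the 15 genes. Another probe that could be compared made the same call for KRTAP10-4 and was within 1.5-fold for KRTAP10-12, and KRTAP3-3 had no other probe to compare. Under OA the probe used was called in 9 genes. Another probe made the same call for KRTAP1-3, other probes were within 1.5-fold for KRTAP3-1, KRTAP4-7, KRTAP4-8, KRTAP9-1 and KRTAP10-10, and the other 3 genes had none to compare. A call on another probe alone was seen for KRTAP4-1 and KRTAP9-1, higher under CAN, and for KRTAP10-4, lower under OA. The brighter KRTAP2-4 probe had intensities of 14186, 6305 and 7392, with differences of -1.03 and -1.20. Its other probe was not detected in control cells (35.0) or under OA (16.4) and stood at 610 under CAN, at least 19.2-fold higher than control. For KRTAP4-7 the CAN difference was -1.19 on the probe used and 0.82 on another, and for KRTAP4-8 it was -0.90 and 0.60. In contrast, the KRTAP5-5 probes gave -0.27 and -0.25 under CAN and -0.45 and -0.45 under OA.

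For 5 genes, KRTAP1-3, KRTAP1-5, KRTAP3-3, KRTAP4-3 and KRTAP4-7, a probe was well above background on all 3 arrays and another on none. The higher KRTAP3-3 signal under OA was seen on 1 probe, since the other had intensities of 7.53, 5.61 and 12.5. KRTAP4-2 was read by 1 probe. The probe sequences were not used here, and whether a KRTAP transcript also bound probes of its copies was not tested.

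**Figure D4:**
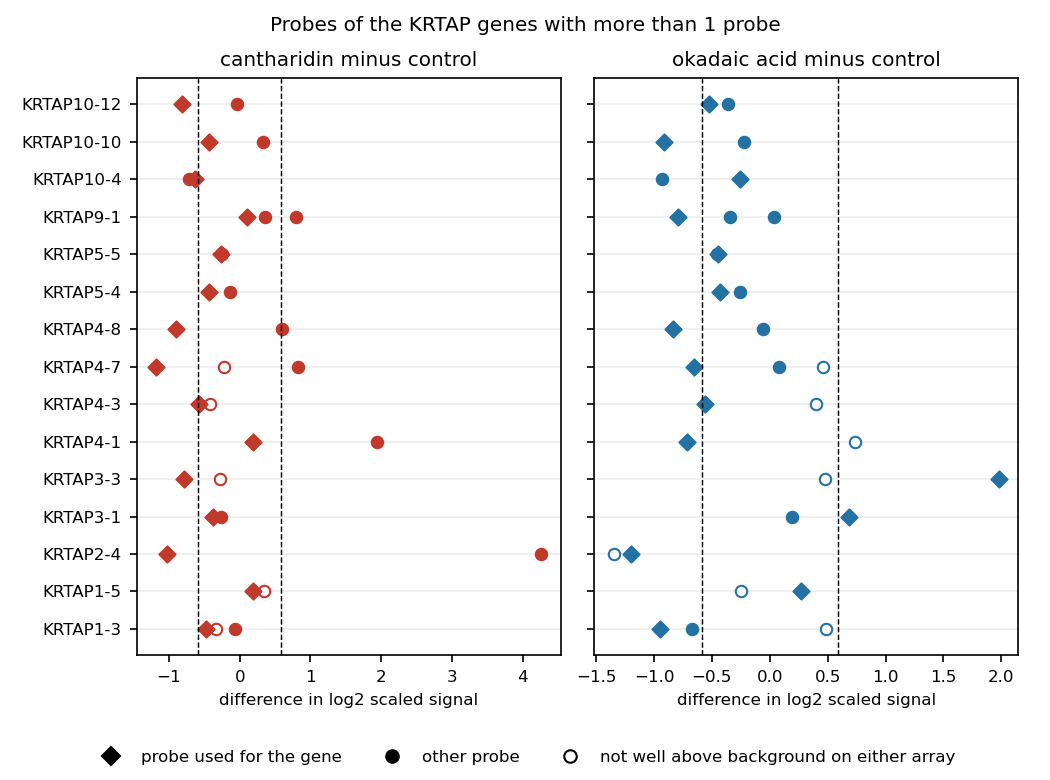
Log2 difference from control (x axis) for each probe of the 15 KRTAP genes with more than 1 probe, under CAN on the left and OA on the right, which have different x ranges. Diamonds are the probes used for the gene, circles the others, open symbols probes not well above background on either array, and dashed lines 1.5-fold. The probes of KRTAP2-4 lie at -1.03 and 4.26 under CAN.

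Probes printed in 10 spots gave a view of the noise within an array. The KRTAP4-1 probe of this kind, which was not the one used for the gene, was well above background in 10 of 10 spots under CAN, in 0 of the 9 unflagged spots in control cells and in 0 of 10 under OA. A further control spot was left out because the software marked it as an outlier. The median spot intensity was 16.3 in control cells, 58.8 under CAN and 36.3 under OA, and CAN was at least 1.87-fold above control. The CAN spots lay between 51.0 and 70.8, above all spots used on the other arrays, before any scaling. On the brighter KRTAP4-1 probe the intensities were 190, 197 and 138, with a CAN difference of 0.19. For KRTAP3-1, all 10 spots were well above background on each array, and the SD of log2 intensity over spots was 0.14 in control cells, 0.26 under CAN and 0.12 under OA. None of the KRTAP9-3 spots used passed this mark on any of the arrays.

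**Figure D5:**
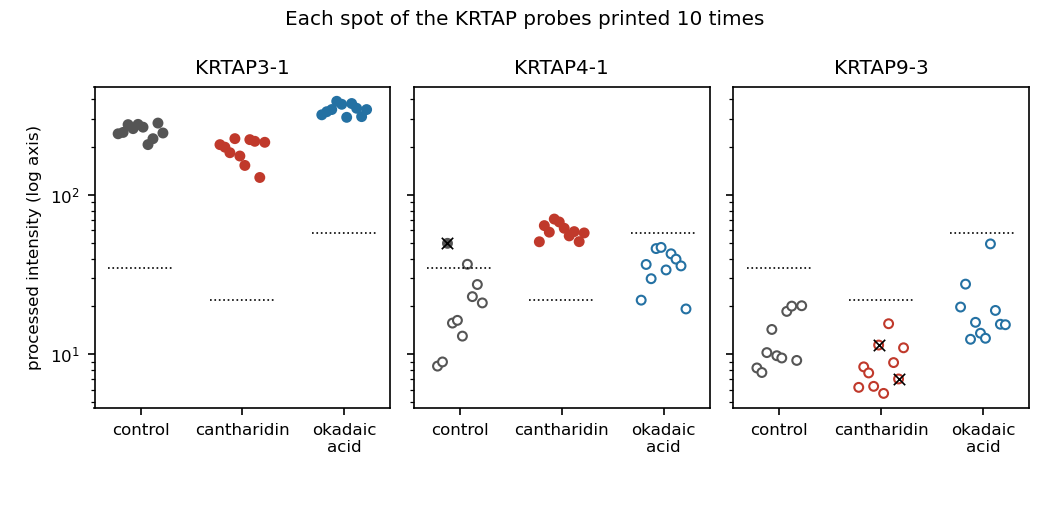
Processed intensity (y axis, log scale) of each spot of the KRTAP3-1, KRTAP4-1 and KRTAP9-3 probes printed 10 times, by array. Filled points were well above background, crosses mark spots left out as outliers, and dotted lines give the lowest intensity well above background among probes of that array. KRTAP4-1 spots are filled throughout only under CAN, at 51.0 to 70.8.

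The genes that work with KRTAPs in hair were described in the same way. Their counts stand beside 27.5% higher and 34.1% lower over all genes under CAN, and 28.1% and 28.8% under OA. Of the 15 hair keratins on the array, the filament partners of KRTAPs, 12 could be compared under CAN, with 2 higher (16.7%) and 3 lower, and 9 under OA, with 3 higher (33.3%) and 2 lower (22.2%). KRT32, an acidic cuticle keratin, had intensities of 270, 995 and 1046 and differences of 2.02 and 1.70. KRT35, an acidic keratin of the hair matrix and cuticle, showed 55.1, 34.3 and 224, with differences of -0.54 and 1.77. KRT83, a basic cortex keratin, was lower under both agents, with differences of -1.44 and -0.66. Their median was -0.12 under CAN and -0.11 under OA, and members lay on both sides of it by more than 1.5-fold.

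Of the transcription factors of the hair shaft, 11 of 18 were higher under CAN (61.1%, against 27.5% of all genes) and 3 lower (16.7%), with a median of 0.88. Under OA 10 of 15 were higher (66.7%, against 28.1% of all genes) and 2 lower (13.3%), with a median of 1.05. Some of these factors were well above background on only 1 of the arrays compared. Among those well above background on both, 7 of 13 were higher and 3 lower under CAN, against 3812 and 4937 of 14900 genes. Under OA 8 of 13 were higher and 2 lower, against 4053 and 3917 of 14428 genes. The list was chosen with earlier results of these data known. The homeobox factor MSX1 had intensities of 256, 1767 and 7675, with differences of 2.92 and 4.65. The forkhead factor FOXQ1 had 104, 672 and 3120, with 2.83 and 4.65. VDR, the vitamin D receptor, had differences of 1.86 and 3.04. HOXC13, a homeobox activator of hair keratin and KRTAP genes, was picked after its values had been seen. Its intensities were 2843, 1361 and 5978, lower under CAN (-0.92) and higher under OA (0.82).

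Among 20 hair matrix and inner root sheath proteins, 2 of 14 compared were higher (14.3%) and 4 lower (28.6%) under CAN, and 3 of 14 were higher (21.4%) and 4 lower (28.6%) under OA. The largest differences measured on both arrays were those of KRT28, an inner root sheath keratin (-2.70 under CAN), S100A3, a calcium-binding protein of the hair cuticle (2.49 under OA), and CRYM, a thyroid hormone-binding protein (2.27 and 0.99). Of 16 hair follicle signals, 2 of 14 were higher (14.3%) and 4 lower (28.6%) under CAN, and 3 of 13 were higher (23.1%) and 4 lower (30.8%) under OA. BMPR1A, a BMP receptor, was at -2.35 and -0.77, NOG, the BMP antagonist noggin, at -2.34 and -1.20, and EDARADD, the adaptor of the ectodysplasin receptor, at -0.48 and -1.89.

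Other small structural proteins of cornified epithelia were compared because their genes are also clustered copies, beside the same shares of all genes (27.5% higher and 34.1% lower under CAN, 28.1% and 28.8% under OA). Small proline-rich (SPRR) genes, which encode cornified envelope cross-linkers, had 5 of 10 higher and 1 lower (10.0%) under CAN, and 4 of 10 higher (40.0%) and 1 lower under OA. SPRR2A had intensities of 268, 4998 and 879, with differences of 4.36 and 1.46. SPRR2E and SPRR2C were at 4.21 and 3.74 under CAN and at 1.14 and 0.67 under OA, so in these 3 genes, as in KRTAP4-2, the CAN array was highest. Late cornified envelope (LCE) genes had 0 of 14 higher under either agent, with 7 lower under CAN and 6 under OA (42.9%). LCE1A was at -2.18 and -1.85, LCE1C at -1.57 and -1.44, and LCE3A at -1.47 under CAN. Of the other cornified envelope proteins, 0 of 7 were higher and 2 lower (28.6%) under CAN, and 1 of 6 was higher and 1 lower (16.7% each) under OA. CNFN was at -1.91 and -1.51, CDSN at -0.33 and 1.20, and FLG at -0.64 and 0.01.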

How the data were processed

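The authors measured total RNA of PANC-1 cells on 3 Agilent 1-colour arrays and deposited the scanner output, read by Feature Extraction 11.0.1.1, with an intensity per spot. Per the file headers, the annotation build was hg19, the arrays lay on 1 slide, and the processed intensity was background-subtracted and detrended, with no scaling between arrays. A deposited table of log2 values, normalized by the authors, whose making is not given in the sources used here, served as an alternative. Groups came from the labels.

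Outlier spots were left out, log2 processed intensity was averaged per probe, and the 75th percentile of each array was subtracted (intensity 784, 713 and 936 for control, CAN and OA). No transcript spot was saturated. Accessions without version were matched to RefSeq GRCh38.p14. A gene was read by the probe with the highest mean log2 signal and called at 1.5-fold. Where a probe was undetected on 1 array, a fold is given as "at least", against the higher of its own signal and the lowest intensity well above background there. The number of arrays limits the precision, and the spot error covers spot noise only. Members and lists were chosen with earlier results of these data known. Named in full were members past 1.5-fold under either agent, and from each list at most 3 genes with the largest differences measured on both arrays, apart from genes stated to be picked later. List genes KRT34 and KRT86 and the KRTAP protein sequences were not analysed here. Promoter identity was computed by global alignment over 250 bases. The counting code was run on simulated arrays with large planted changes and little noise, which checks the code and not calls near the threshold.

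Alternatives were normexp background correction (offset 50, on median spot and background intensity), scaling to the median, to the 75th percentile of probes detected on all arrays, or not at all, quantile normalization, keeping dim probes, detection on all 3 arrays, the deposited table, a 2-fold threshold, the median over each gene's probes, and dim signals at the floor. The normexp offset by itself shrinks the log2 differences of dim probes, so a call of a dim gene lost there is not a separate check. Members with a single probe were chosen after seeing the data. Software was Python 3.11.15 (pandas 2.3.3, numpy 2.4.6, Biopython 1.88, matplotlib 3.10.9) and R 4.3.3 (limma 3.58.1).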

Additional observations from a re-analysis of the deposited data

Results flagged for a closer look

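Signals of 2 KRTAP genes went below control under CAN and above it under OA, past 1.5-fold each time. KRTAP3-3 had log2 differences of -0.78 under CAN and 1.98 under OA, and KRTAP21-1 had -0.60 and 0.87. With 1 array per group, the difference between the agents was not tested. Across the settings run, KRTAP3-3 lay between -0.92 and -0.53 under CAN and between 1.23 and 2.24 under OA, and KRTAP21-1 between -0.74 and -0.34 and between 0.62 and 1.12. Both genes were thus called higher under OA in each setting at 1.5-fold, while their CAN calls were lost in some.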

How the results depend on the processing

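KRTAP4-2 stayed between 5.57 and 6.93 under CAN and between 3.12 and 4.54 under OA on the log2 scale in all settings run, and KRTAP12-2, KRTAP2-3 and KRTAP13-4 did not go below 0.78. KRTAP4-6 and KRTAP4-9 went as low as 0.38 and 0.16 under CAN and 0.42 and 0.24 under OA, and KRTAP3-1 and KRTAP3-2 as low as 0.44 and 0.24 under OA. Calls of KRTAP genes lost in any setting at 1.5-fold were 2 of 7 higher and 13 of 17 lower under CAN, and 7 of 14 higher and 11 of 15 lower under OA. The share of KRTAP genes called higher under CAN was below that of all genes in each setting. Without scaling the median of all genes moved to -0.30 under CAN and 0.26 under OA, and the KRTAP medians with it, to -0.40 and 0.25. The cause of the other shifts was not tested. The call counts that follow are of 70 genes under CAN and of 69 in the other comparisons, unless stated. For each count the KRTAP share was below the share of all genes, and that share also changed with the setting. KRTAP genes higher under CAN numbered 11 of 84 without a filter on dim probes (13.1%, against 24.6% of all genes). They numbered 11 in the deposited table (15.7%, against 29.7%) and 4 at 2-fold (5.71%, against 20.1%). Those lower under CAN numbered 9 with normexp, 7 at 2-fold and 11 of 55 over members with a single probe, where fewer were compared. The shares of all genes there were 26.2%, 22.3% and 34.6%. Those higher under OA numbered 7 with normexp and 7 at 2-fold, beside 22.4% and 18.8% of all genes. Those lower under OA numbered 9 without scaling, 4 at 2-fold and 8 of 54 over members with a single probe. The OA median was -0.11 with normexp and -0.12 with median scaling. For OA against CAN, the count of higher genes was 4 with normexp, 9 with median scaling, 30 without scaling and 6 at 2-fold. The count of lower genes was 12 with median scaling, 11 with quantile normalization, 3 without scaling, 13 in the deposited table and 3 at 2-fold. The median was -0.056 with median scaling, -0.0062 with quantile normalization, 0.49 without scaling and -0.0081 in the deposited table. Taking the median of a gene's probes turned KRTAP2-4 under CAN to 1.62, KRTAP4-1 under OA to 0.012 and KRTAP4-7 under OA to 0.075. Of the other values for single genes, 740 moved by less than their spot error and 80 by more. The 2-fold threshold, the changes of filter and the single-probe setting reuse the main values. Their part of the 740 could not move, so that count is not a measure of stability. No paired analysis was possible because there was 1 array per group, and for the same reason no array could be left out. Signals near the background of an array limit KRTAP3-2, KRTAP4-6, KRTAP4-9, KRTAP22-2, KRTAP24-1 and KRTAP20-3.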
